A study of Mus musculus with 2 samples.

Results

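The Myc family and its partners were taken here as 8 genes: Myc, Mycn, Mycl, Max, Mxd4, Mxi1, Mnt and Mlx. They were found by gene symbol among the 32285 genes of the count matrices, and each symbol matched 1 gene. Their UMIs (unique molecular identifiers, each standing for 1 captured RNA molecule) were counted in cell barcodes with at least 2500 UMIs, at least 1000 genes and at most 10% mitochondrial UMIs. The 8 genes were listed by name and not by a measured level, but earlier results of these data were known when they were chosen.

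The cells came from mouse gastruloids, aggregates of embryonic stem cells that begin to pattern a body axis in culture. Aggregates were started from 300 R1 mouse embryonic stem cells in N2B27, a serum-free medium. Both groups received 3 µM CHIR, which inhibits the kinase GSK3 and so turns on Wnt signalling, for 12 hours from day 2. Aggregates were pooled at day 2.5, dissociated and made into 1 droplet-based library of transcript 3′ ends per genotype. One library is labelled wild type, and the other is labelled as a double mutant of Sp5 and Sp8, a pair of transcription factors of the Sp family that act in Wnt signalling. They are called the wild-type-labelled and the mutant-labelled library below. The labels do not say how the mutant line was made or whether it is 1 clone. Pooling of aggregates into 1 library leaves no replicate, so no difference below has a replicate check, and every interval is a 95% interval for counting error only.

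Myc proteins bind DNA as heterodimers with Max through a basic helix-loop-helix leucine zipper, prefer the E-box sequence, and activate genes for ribosome making, metabolism and cell cycle entry. Mnt and the Mxd proteins, of which Mxi1 is one, compete for Max and recruit Sin3 repressor complexes, while Mlx is a Max-like protein that dimerises with Mlxip and Mlxipl and with some of the same repressors. In the early mouse embryo, Mycn and Myc support growth of the epiblast, and embryonic stem cells carry RNA of several paralogs at once.

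The wild-type-labelled library held 8707 cells and the mutant-labelled library 10587, where the labels state 9238 and 11190 captured cells and 8772 and 10613 barcodes reached 2500 UMIs. Cells held 97157331 and 97644169 UMIs in all, with medians of 10571 and 8637 UMIs per cell, so shares of cells with a UMI were also taken after thinning every cell to 2500 UMIs. The targeted genes went against the label: Sp5 was at 109.1 CPM (counts scaled to the UMI total of the library) in the wild-type-labelled library and 478.7 CPM in the mutant-labelled library, and Sp8 was at 20.8 and 40.1 CPM. A 3′ tag can lie outside a deleted stretch, so this does not test the lesion. Whether the labels are exchanged was not tested either, and an exchange would turn the sign of every library ratio, so no direction below can be read as an effect of losing Sp5 and Sp8. Cells from the 2 libraries shared 27 barcodes, and without these the Mycn ratio given below was -0.80 as with them. Summed CPM of 10 primitive streak markers was 329.3 in the wild-type-labelled library and 523.4 in the mutant-labelled library, that of 8 early neural markers was 80.8 and 54.7, and that of 9 naive pluripotency markers was 39.5 and 39.7. None of the markers was at 0 in either library, and 6 primed epiblast markers summed to 991.1 and 1075.9 CPM.

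Mycn was the one member that stood well apart between the libraries, and the sequence just upstream of its annotated start is shown for that reason. Mycn lies on the minus strand of chromosome 12 from 12936093 to 12941914 (GRCm38). The stretch below is the part of the RefSeq promoter window that lies before that start, chr12:12941915-12942086 on the minus strand (GRCm38.p6), written 5′ to 3′. Capitals mark an E2F-type site (TTTGGCGC) and a GC box (GGGCGG), the core bound by Sp-family factors.

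Mycn: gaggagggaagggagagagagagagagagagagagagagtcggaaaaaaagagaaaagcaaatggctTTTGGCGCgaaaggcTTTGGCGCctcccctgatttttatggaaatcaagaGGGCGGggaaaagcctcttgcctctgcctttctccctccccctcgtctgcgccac

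The stretch held 2 copies of the E2F-type site and 1 GC box, with no E-box (CACGTG), searching both strands. Across 32851 promoter windows of 300 bases, 0.514% held the E2F-type site, 35.7% a GC box and 7.15% an E-box. Among 6119 matched genes with a mean of at least 10 CPM the shares were 1.39%, 73.6% and 13.1%. Among members with a RefSeq window (7 of 8), an E-box stood in those of Max, Mxd4, Mnt and Mlx, and the E2F-type site in that of Mycn only. A GC box stood in the windows of Mycn, Mycl, Mxd4, Mnt and Mxi1. These matches describe letters in a window and not bound sites. The motif search was not among the comparisons planned beforehand. The rarity of the E2F-type site is therefore a description and no test of Mycn.

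**Figure D1:**
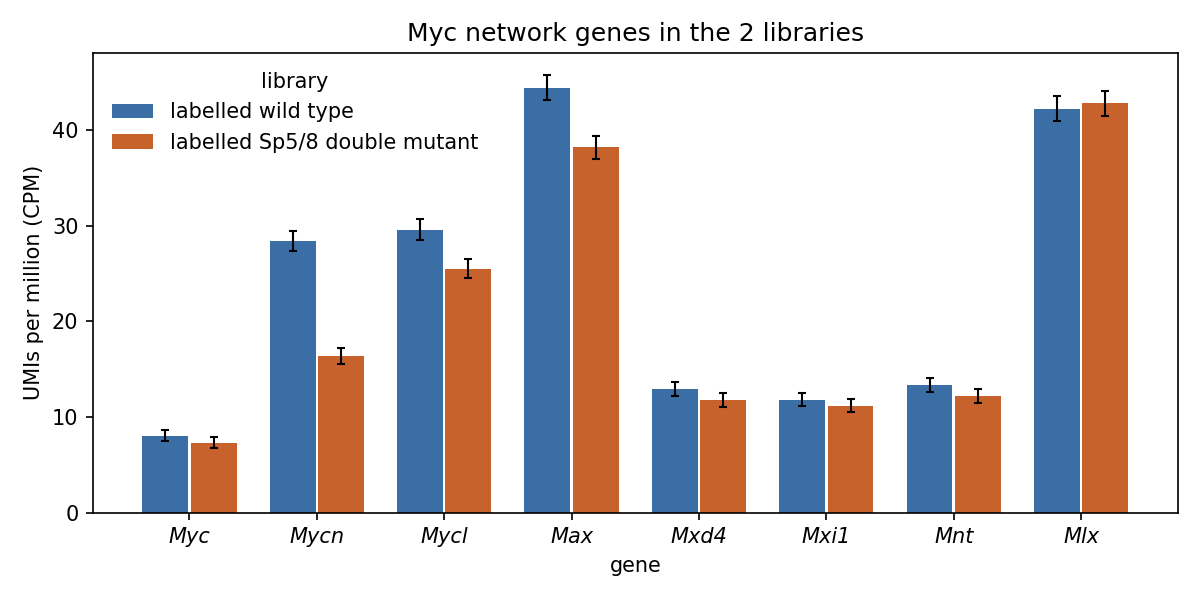
Level of each member in the wild-type-labelled library and the mutant-labelled library, in CPM with exact Poisson 95% intervals. Mycn shows the widest gap, from 28.4 to 16.4 CPM, and the intervals of Mlx overlap.

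Among the paralogs, Mycn was at 28.4 CPM (27.4 to 29.5, 2762 UMIs) in the wild-type-labelled library and at 16.4 CPM (15.6 to 17.2, 1597 UMIs) in the mutant-labelled library. The log2 ratio of the mutant-labelled to the wild-type-labelled library was -0.80 (-0.89 to -0.71), a level 1.74-fold lower. Mycl, the third paralog, was at 29.6 CPM (28.5 to 30.7) and 25.5 CPM (24.5 to 26.6), a log2 ratio of -0.21 (-0.29 to -0.14). Myc, the founding member of the family, was rare in both libraries. It was at 8.05 CPM (7.49 to 8.63, 782 UMIs) and 7.30 CPM (6.78 to 7.86, 713 UMIs), and its log2 ratio of -0.14 (-0.29 to 0.01) had an interval that held 0. Mycn thus had intervals far apart, Mycl had smaller separate intervals, and those of Myc overlapped.

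A member was called when its log2 ratio reached 0.25 in size with an interval that left out 0, over genes with a mean of at least 10 CPM. Myc misses that minimum, so 7 of 8 members could be called. Of these, 1 was called lower (Mycn) and 0 higher, where 4.67% of the 7607 genes tested were called lower and 3.13% higher. Without the fold threshold, 7 of 8 members had a lower level in the mutant-labelled library, with 5 intervals below 0 and 3 that held 0. Of all genes tested, 42.9% had a ratio above 0, and the share with an interval below 0 was not taken. These counts are therefore not read as a trait of the 8 genes. The median log2 ratio of the members was -0.14, and that of all genes tested was -0.02.

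Max, the shared dimer partner, was at 44.5 CPM (43.1 to 45.8) in the wild-type-labelled library and 38.2 CPM (37.0 to 39.5) in the mutant-labelled library. Its log2 ratio was -0.22 (-0.28 to -0.15), short of the threshold. The Max gene overlaps the annotated gene Gm47218 on the same strand, which makes its count less certain.

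The antagonists of Myc at Max were low and close to even. Mnt, a broadly expressed repressor, was at 13.4 CPM (12.7 to 14.1) and 12.2 CPM (11.5 to 12.9), a log2 ratio of -0.13 (-0.25 to -0.02). Mxd4, a repressor linked to cell cycle exit, was at 12.9 CPM (12.2 to 13.7) and 11.8 CPM (11.1 to 12.5), a log2 ratio of -0.14 (-0.25 to -0.02). Mxi1, the second of the Mxd family here, was at 11.8 CPM (11.1 to 12.5) and 11.2 CPM (10.5 to 11.9), with a log2 ratio of -0.08 (-0.20 to 0.04). The differences of Mnt and Mxd4 were at the edge of their counting intervals, and under TMM scaling both intervals held 0, with upper bounds of 0.01. Mlx, the partner of the glucose-sensing Mondo proteins, was at 42.3 CPM (41.0 to 43.6) and 42.8 CPM (41.5 to 44.1), a log2 ratio of 0.02 (-0.04 to 0.08). How the authors used strand is not stated, so reads of Mlx, Mxd4 and Mxi1 cannot be told apart from those of antisense genes that overlap them (Psmc3ip, Gm42846, and AC133451.2 with Gm10197).

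Levels of different genes are counts of 3′ tags and were compared between genes only as shares of the paralog total. Myc, Mycn and Mycl together made 66.1 CPM in the wild-type-labelled library and 49.2 CPM in the mutant-labelled library, a log2 ratio of -0.43 (-0.48 to -0.37). Mycn gave 43.0% (41.8 to 44.3) of the paralog UMIs in the wild-type-labelled library and 33.2% (31.9 to 34.6) in the mutant-labelled library. The share of Mycl was 44.8% and 51.9%, and that of Myc was 12.2% and 14.8%. In the summed level, Mycl outnumbered Mycn clearly in the mutant-labelled library, while in the wild-type-labelled library their shares were close.

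The share of cells with a Mycn UMI followed the summed level. After thinning to 2500 UMIs it was 6.67% (6.16 to 7.22) in the wild-type-labelled library and 4.11% (3.74 to 4.50) in the mutant-labelled library, and 24.8% and 13.1% without thinning. Thinned to 5000 UMIs, cells with a Mycn UMI held a mean of 1.12 and 1.09 Mycn UMIs, and those shares were 12.7% and 7.55%. Cells with at least 2 Mycn UMIs at that depth were 1.41% and 0.552%. A mean near 1 UMI per positive cell is set by the low level of the gene and says nothing of differences between cells. Mycl went from 7.32% to 6.13% of thinned cells and Max from 10.8% to 9.07%, and these 3 were the members whose thinned share was lower with intervals apart. The same count over all genes was not taken. RNA free in the droplets carried the members too: in barcodes with at most 100 UMIs, Mycn was at 27.9 and 19.7 CPM, and Myc at 7.78 and 5.66 CPM. No cell type in these libraries is known to lack the 8 genes, so a background share could not be set for them.

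Cells were next split by T (Brachyury, a Wnt target and primitive streak gene), by Eomes (a streak and endoderm regulator) and by Irx3 (a gene of the neural plate), each counted as present with 1 UMI or more. T was detected in 2267 cells (26.0%) of the wild-type-labelled library and 3100 cells (29.3%) of the mutant-labelled library, Eomes in 3780 (43.4%) and 6547 (61.8%), and Irx3 in 1346 (15.5%) and 657 (6.21%). After thinning to 2500 UMIs the shares were 7.86% and 10.7% for T, 16.8% and 31.1% for Eomes, and 4.64% and 1.95% for Irx3. As a rough background for T detection, cells with at least 3 naive pluripotency markers had a thinned T share of 2.47% and 6.0%. These were only 81 and 50 cells, at median depths of 12378 and 9888 UMIs. They received CHIR too, and whether they lack T was not tested, so the shares set no firm background. Positive cells were deeper than negative ones, for T with medians of 11773 against 10129 UMIs in the wild-type-labelled library and 9771 against 8251 in the mutant-labelled library. The part of this depth gap in the class differences was not tested beyond the thinned values given below.

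T-positive cells held less Mycn and more Myc in both libraries. Mycn was at 23.4 CPM in T-positive and 30.6 CPM in T-negative cells of the wild-type-labelled library, a log2 ratio of -0.38 (-0.51 to -0.26). For the mutant-labelled library the values were 11.9 and 18.6 CPM, a log2 ratio of -0.65 (-0.82 to -0.48). The gaps of the libraries differed by -0.26 (-0.47 to -0.06), by counting error alone. Myc was at 9.31 against 7.51 CPM and at 8.66 against 6.63 CPM, log2 ratios of 0.31 (0.09 to 0.53) and 0.39 (0.16 to 0.61). Mycl was higher in T-positive cells of the wild-type-labelled library, at 35.4 against 27.1 CPM, a log2 ratio of 0.38 (0.27 to 0.49). In the other library it was at 26.6 against 25.02 CPM, a log2 ratio of 0.09 (-0.03 to 0.21), which is a difference of -0.30 (-0.46 to -0.14) between the libraries. That difference depended on the setting. With T classes taken from thinned counts the Mycl ratios lay close together, at 0.40 (0.01 to 0.76) and 0.33 (-0.02 to 0.65).

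A class difference was called when it reached 0.25 on the log2 scale in the same direction in both libraries. For T, 1 of 7 members was called lower (Mycn) and 0 higher, against 1.03% of 7606 genes in each direction. With the minimum set at 5 CPM, chosen after the data were seen, Myc was called higher as the second of 8, where 1.21% of 9385 genes were called higher. The Myc values rest on few UMIs: with T classes taken from thinned counts its log2 ratio in the wild-type-labelled library was -0.25 (-1.34 to 0.57), and with cells that held T alone set against cells with none of the 3 class genes it was -0.10 (-0.56 to 0.31). Under the same settings Mycn in that library was -0.19 and -0.23, short of the threshold, while the mutant-labelled library gave -0.66 and -0.70. With thinned classes the 1 member called for T was Mycl, at 0.40 and 0.33. Max, Mxd4, Mxi1, Mnt and Mlx had log2 ratios between -0.19 and 0.11 for T in either library.

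**Figure D2:**
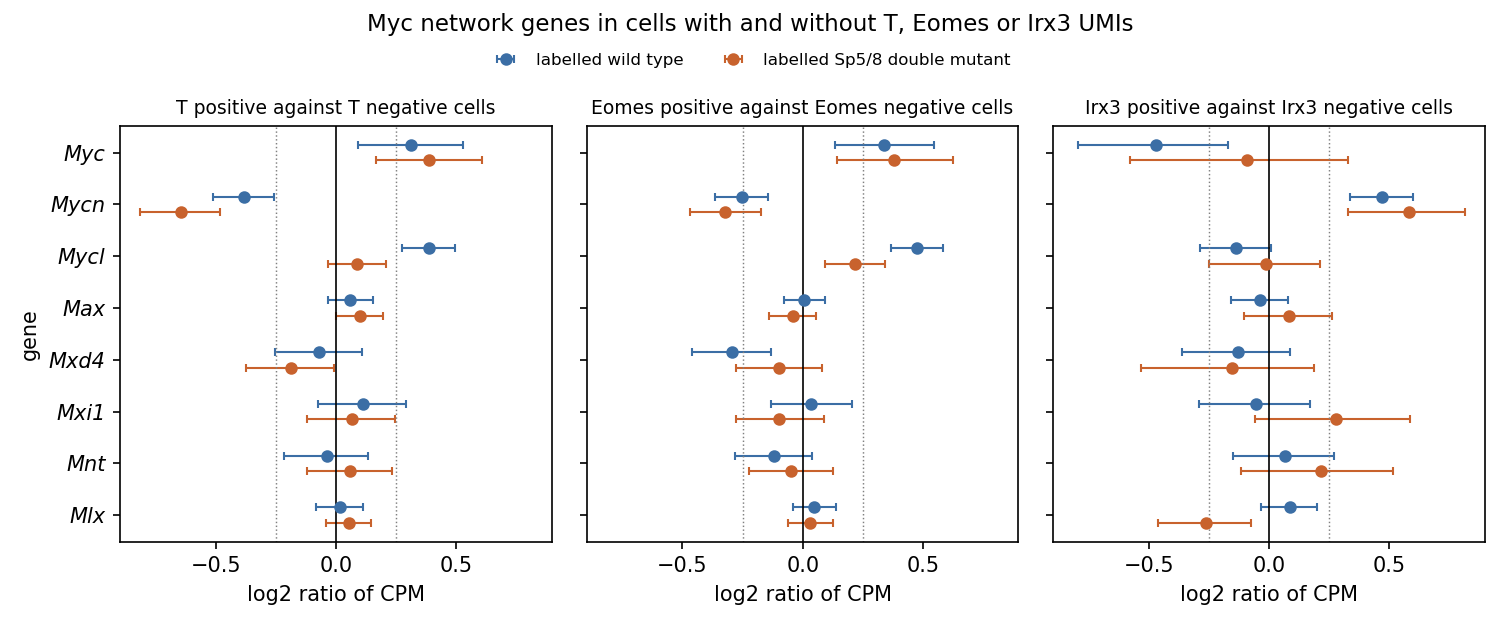
Log2 ratio of each member in cells with a UMI of T, Eomes or Irx3 over cells without one, for each library, with 95% counting intervals. Mycn lies below 0 for T and Eomes and above 0 for Irx3 in both libraries, and Myc lies above 0 for T and Eomes.

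Eomes-positive cells also held less Mycn and more Myc in both libraries. Mycl was at 34.6 against 24.9 CPM in the wild-type-labelled library and 26.8 against 23.0 CPM in the mutant-labelled library. Its log2 ratios were 0.48 (0.37 to 0.58) and 0.22 (0.09 to 0.34), a difference of -0.26 (-0.42 to -0.09), and the second is short of the threshold. Mycn was at 25.9 against 30.9 CPM and at 15.1 against 18.9 CPM, log2 ratios of -0.25 (-0.36 to -0.15) and -0.32 (-0.47 to -0.17). Myc was at 9.02 against 7.13 CPM and at 7.92 against 6.08 CPM, log2 ratios of 0.34 (0.13 to 0.55) and 0.38 (0.14 to 0.63). Mxd4 was lower in Eomes-positive cells of the wild-type-labelled library, at 11.6 against 14.2 CPM, with a log2 ratio of -0.29 (-0.46 to -0.13), and the other library gave -0.10 (-0.28 to 0.08).

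For Eomes, 1 of 7 members was called lower (Mycn) and 0 higher, where 1.64% of genes were called lower and 1.59% higher. The Mycn call sat at the threshold. It was lost with cells that held Eomes alone set against cells with none of the 3 class genes, where the Mycn ratios were -0.10 (-0.25 to 0.04) and -0.22, and the 1 member called was Mycl, at 0.39 and 0.26. It was also lost when 2 UMIs were needed for a positive cell (-0.25 in the wild-type-labelled library, just short of it), and without cells low on chromosome 11 (-0.23) or chromosome 6 (-0.23). With classes from thinned counts the Mycn ratios were -0.19 and -0.16, and the 1 member called there was Mycl, at 0.55 and 0.27. At a minimum of 5 CPM, Myc was called higher for Eomes as well, beside 1.76% of genes.

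Cells were also graded by class gene UMIs after thinning. Cells of the wild-type-labelled library with 0, 1, 2 and 3 or more Eomes UMIs held Mycn at 29.2, 25.5, 23.2 and 19.0 CPM. The same steps in the mutant-labelled library held 17.1, 15.1, 14.9 and 12.8 CPM. Mycl was at 28.0, 35.5, 39.8 and 45.9 CPM in the wild-type-labelled library, the reverse order, and in the mutant-labelled library at 24.7, 26.2, 30.3 and 28.6 CPM. Myc was at 7.66, 9.58, 10.4 and 12.7 CPM, and at 6.56, 8.90, 8.13 and 10.2 CPM. The highest step held only 53 and 276 cells, with 12 and 34 Mycn UMIs (intervals of 9.81 to 33.2 and 8.86 to 17.9 CPM), and neighbouring steps of Mycn above 0 Eomes UMIs had overlapping intervals. By T UMIs of 0, 1, 2 and 3 or more, Mycn was at 29.0, 22.1, 21.5 and 29.1 CPM in the wild-type-labelled library and at 17.1, 10.9985, 9.93 and 9.10 CPM in the mutant-labelled library, where the highest step held 9 and 27 cells. By Irx3 UMIs of 0, 1 and 2, it was at 27.6, 45.6 and 25.6 CPM and at 16.1, 25.4 and 63.7 CPM, with 24 and 13 cells at 2. The order over the T and Irx3 steps was not steady in the wild-type-labelled library.

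Irx3-positive cells were the cells with the most Mycn among the 3 classes. Mycn was at 36.9 against 26.7 CPM in the wild-type-labelled library and 23.6 against 15.8 CPM in the mutant-labelled library. The log2 ratios were 0.47 (0.34 to 0.60) and 0.58 (0.33 to 0.82), which differed by 0.11 (-0.16 to 0.38). Myc was lower in Irx3-positive cells of the wild-type-labelled library, at 6.08 against 8.45 CPM, with a log2 ratio of -0.47 (-0.79 to -0.17), and the mutant-labelled library gave -0.09 (-0.58 to 0.33). Of 7 members, 1 was called higher (Mycn), beside 1.91% of genes, and 0 lower, beside 1.54%. Mlx was at 44.4 against 41.8 CPM in the wild-type-labelled library and at 36.01 against 43.3 CPM in the mutant-labelled library. Its log2 ratios lay on opposite sides of 0, at 0.09 (-0.03 to 0.20) and -0.26 (-0.46 to -0.08), and the first interval held 0.

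Because Irx3-positive cells are rarer and Eomes-positive cells more common in the mutant-labelled library, the libraries were compared within each of the 8 combinations of T, Eomes and Irx3 detection. Mycn was lower in the mutant-labelled library in 8 of 8 combinations, past the threshold in 8, with an interval below 0 in 6. In cells with none of the 3 genes (3300 and 3081 cells) it was at 29.5 and 19.7 CPM, a log2 ratio of -0.58 (-0.74 to -0.42). Cells with T and Eomes (1320 and 2367 cells) had 21.3 and 11.4 CPM, a log2 ratio of -0.89 (-1.12 to -0.67). Cells with T alone (708 and 613) had the lowest ratio, at 25.1 and 12.1 CPM, a log2 ratio of -1.05 (-1.48 to -0.65). The smallest gap was in cells with Eomes and Irx3, at 33.8 and 25.2 CPM, a log2 ratio of -0.42 (-0.89 to 0.02). With class shares made equal between the libraries the log2 ratio of Mycn was -0.70, against -0.80 without.

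**Figure D3:**
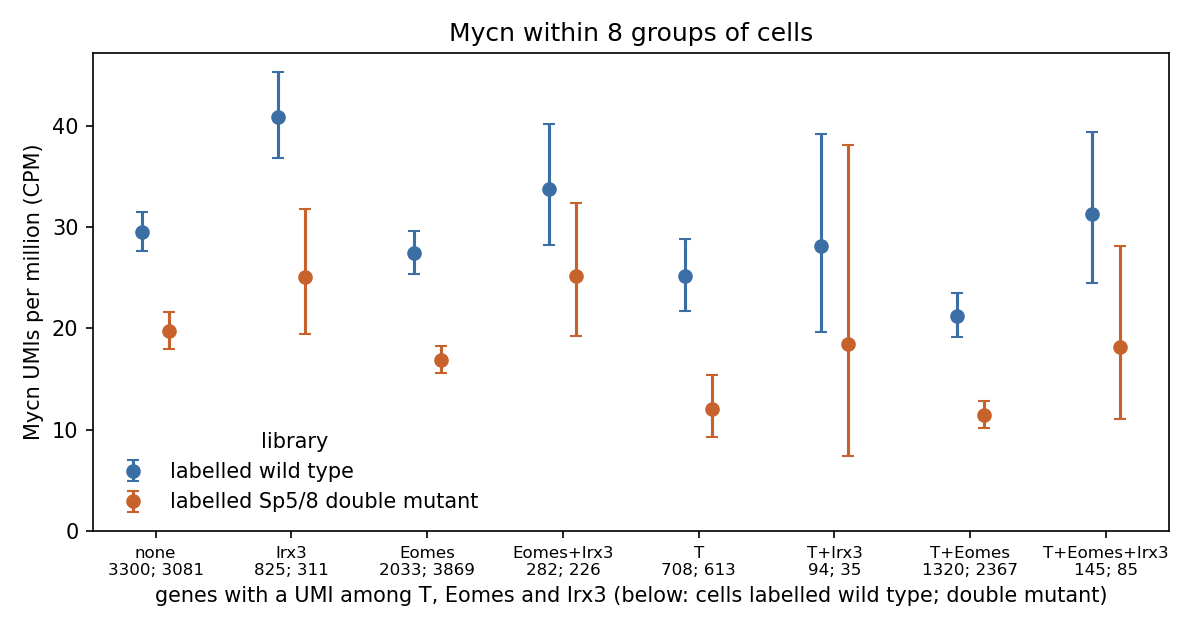
Level of Mycn in CPM, with 95% counting intervals, in cells of the 8 combinations of T, Eomes and Irx3 detection in each library. Every combination lies lower in the mutant-labelled library, and the smallest groups (94 and 35 cells with T and Irx3) have the widest intervals.

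No other member was lower in all 8 combinations, but none had an interval above 0 in any of them. The exceptions of Max and Mnt, for example, were in cells with all 3 genes. They were at 0.03 (-0.48 to 0.51) and 0.32 (-0.51 to 1.08). The same counts over all genes, for Mycn as for the others, were not taken. Mycl was lower in 6 of 8 combinations and past the threshold in 4. Its largest well-counted gap was in cells with T and Eomes, at 39.2 and 27.2 CPM, a log2 ratio of -0.53 (-0.68 to -0.37), while cells with none of the 3 genes had 24.2 and 22.4 CPM, a log2 ratio of -0.11 (-0.27 to 0.05). Myc was lower in 5 of 8 combinations, Max and Mnt in 7, Mxd4 and Mxi1 in 6, and Mlx in 4. In cells with none of the 3 genes Myc was at 7.61 and 5.49 CPM, a log2 ratio of -0.47 (-0.79 to -0.16), and in cells with T and Eomes -0.29 (-0.57 to -0.01). The ratio over the whole libraries was -0.14 (-0.29 to 0.01), and with doublet scores removed -0.18 (-0.33 to -0.02).

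Mycn made a smaller part of the paralog UMIs in T-positive cells, 34.4% against 46.9% of T-negative cells in the wild-type-labelled library, and 25.2% against 37.0% in the mutant-labelled library. Irx3-positive cells gave it the largest part, 52.6% and 42.4%. In each of these classes the mutant-labelled library had the smaller Mycn part.

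Over 15 bins of library by T, Eomes and Irx3 detection with at least 50 cells each, the genes whose log2 CPM ran most like that of Mycn included Bahcc1 (Pearson r 0.93), Tead1 (0.92), Nucks1 (0.91) and Alkbh8 (0.91), among 7261 genes ranked. Tead1 is a DNA-binding partner of Yap. The bins share libraries, depth and the class genes, and the library difference enters every value. The pattern of Myc was matched less closely, by Fzr1 (0.79), Elavl1 (0.77), Zfand6 (0.75), Galnt1 (0.75) and Smap1 (0.74). Mycn and Myc had r of -0.36 with each other over these bins, and Mycn and Mycl 0.17.

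The libraries also hold cells with less RNA from chromosome 11, which carries Mnt and Mlx. Cells with at least 4000 UMIs were counted as low when their chromosome 11 share was at most 0.8 of the median over both libraries together. They were 1507 of 8449 (17.8%) in the wild-type-labelled library and 599 of 10229 (5.86%) in the mutant-labelled library. Mlx was at 30.4 CPM in these and 44.4 CPM in the other cells of the wild-type-labelled library, a log2 ratio of -0.55 (-0.69 to -0.41), and at 28.1 and 43.4 CPM in the mutant-labelled library, -0.62 (-0.88 to -0.38). All 664 tested chromosome 11 genes had medians of -0.50 and -0.53, by the way the cells were chosen, and the 6943 other genes had 0.05 in each. Mnt was at 11.5 against 13.8 CPM, a log2 ratio of -0.27 (-0.51 to -0.03), and at 12.8 against 12.3 CPM, 0.08 (-0.33 to 0.44).

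Among members on other chromosomes, Mxd4 was higher in the cells low on chromosome 11, with log2 ratios of 0.57 (0.37 to 0.77) and 0.46 (0.09 to 0.79). Mxi1, on chromosome 19, was at 13.9 against 11.5 CPM and at 14.3 against 11.1 CPM, with log2 ratios of 0.28 (0.05 to 0.49) and 0.38 (-0.01 to 0.72). Of 7 members, 1 was called lower in both libraries (Mlx) and 2 higher (Mxd4 and Mxi1), where 11.6% of genes were called lower and 7.73% higher. Cells low on chromosome 6, which carries no member, made 21.2% and 18.2% of the libraries, and Mxd4 was higher in these too, with log2 ratios of 0.36 and 0.35. It was the 1 member called higher there, beside 2.96% of genes, and 0 were called lower, beside 7.43%. Without the cells low on chromosome 11 the library ratio was -0.73 (-0.82 to -0.63) for Mycn, -0.03 (-0.10 to 0.03) for Mlx and -0.06 (-0.18 to 0.07) for Mxd4. Without those low on chromosome 6 that of Mycn was -0.73 (-0.83 to -0.63).

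**Figure D4:**
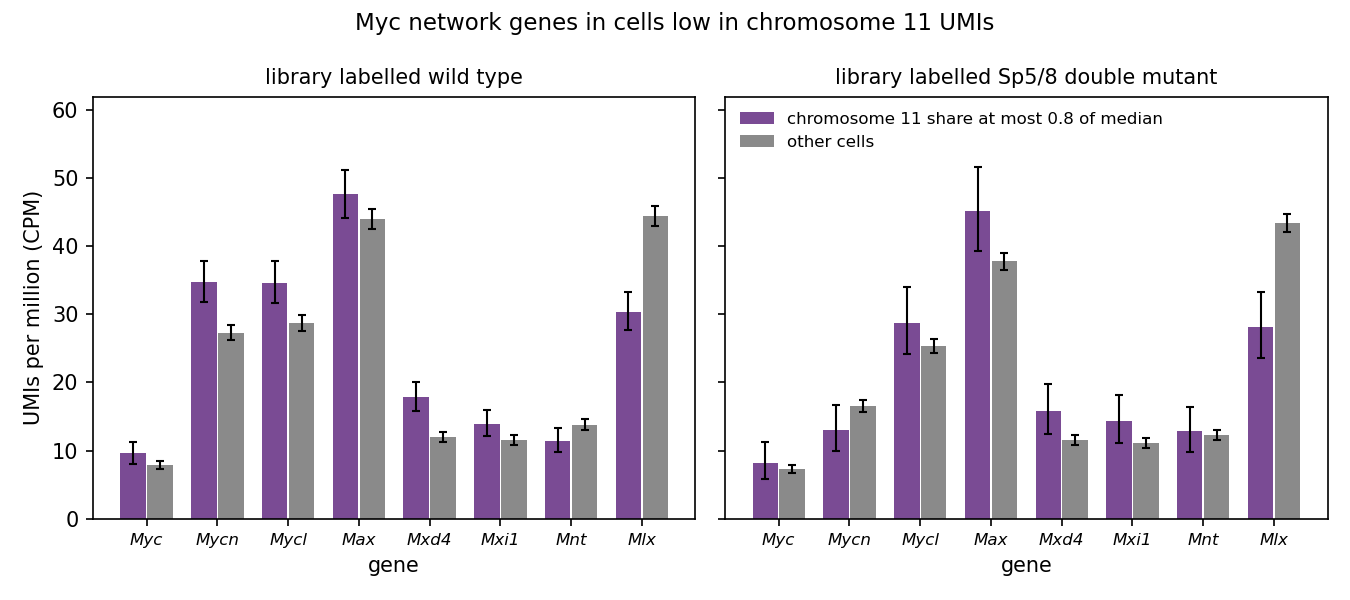
Level of each member in CPM, with 95% counting intervals, in cells with a low share of chromosome 11 UMIs and in the other cells of each library. Mlx, a chromosome 11 gene, is lower in the low cells of both libraries, at 30.4 against 44.4 and 28.1 against 43.4 CPM. Mxd4, which lies on chromosome 5, is higher in the low cells of both.

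The wider Myc network was taken from lists of textbook partners and targets, and compared between the libraries, where 4.67% of all genes tested were called lower and 3.13% higher. Among 2 tested of 5 other bHLHZ partners, 0 were called, with Mga, a Max partner in a repressive Polycomb complex, at -0.19 and Mlxip at 0.01. Of 17 cofactors, 1 was lower and 0 higher (median 0.01): Hdac2, a histone deacetylase, had a log2 ratio of -0.25, right at the threshold and short of it under TMM scaling, with Trrap at -0.23 and Ruvbl2 at 0.16. Of 14 tested among 16 genes of Myc protein turnover, 1 was lower and 0 higher (median -0.01). That one was Huwe1, a ubiquitin ligase of Myc proteins, at -0.29 (228.7 and 187.6 CPM).

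Textbook Myc targets lay on both sides of 0. Over all target lists, 55 of 57 genes were tested, with 4 called higher and 0 lower (beside 3.13% and 4.67% of all genes), a median log2 ratio of 0.03, 30 above 0 and 25 below. Among all genes tested, 42.9% were above 0. The 26 nucleolar and ribosome-making genes had a median of 0.08 with 2 called higher: Mrto4 went from 198.5 to 252.4 CPM (0.35) and Bop1 from 37.8 to 44.9 CPM (0.25). Of 16 metabolic genes, 2 were called higher, Shmt2 of serine and glycine metabolism at 40.1 and 55.3 CPM (0.46) and Hk2 of glycolysis at 122.6 and 153.6 CPM (0.33), with a list median of 0.01. None of 13 tested genes of translation, folding and cycle was called, with Ccnd1 at -0.23 and Phb at 0.15.

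The list of genes repressed by Myc had 4 tested of 7, with 1 called lower and a median of -0.19. Cdkn1c, an imprinted inhibitor of cyclin-dependent kinases, was at 20.8 CPM in the wild-type-labelled library and 6.81 CPM in the mutant-labelled library, a log2 ratio of -1.61 (-1.74 to -1.48), with Cdkn1b at -0.21 and Gadd45a at -0.16. Cdkn1c was also called lower in T-positive cells (-0.34 and -0.41) and in Eomes-positive cells (-0.71 and -0.50), and higher in Irx3-positive cells (0.28 and 0.86), the same directions as Mycn in each class. Over all genes, 1.03% were called lower for T, 1.64% lower for Eomes and 1.91% higher for Irx3. Among the 55 target genes, 1 was called for any class: Ldha, of lactate production, higher in Eomes-positive cells (0.35 and 0.33). With 1.59% of all genes called higher for Eomes, 1 call among 55 is close to that share.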

How the data were processed

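Single cells were profiled in 1 library per genotype. The authors deposited raw UMI counts for each gene in 6794880 barcodes per library, without normalization. Per the labels' protocols the kit was version 3.1 of the 10x 3′ chemistry and Cell Ranger 8.0.1 was run with default settings; the submitters' processing notes also name STARsolo, STAR 2.7.9a, Seurat 5.1.0 and mm10. Which of these wrote the matrices, and how strand and multimapping reads were used, is not given in the sources used here. Cells were kept at 2500 UMIs, 1000 genes and 10% mitochondrial UMIs, which removed 1 and 0 barcodes for few genes and 64 and 26 for mitochondrial UMIs. Doublets were kept, and removal of high doublet scores at 0.8% per 1000 cells was an alternative.

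Counts were summed per library or class and scaled as CPM (Python 3.11.15, SciPy 1.17.1). Log2 ratios used a pseudocount of 0.5 and the exact conditional interval of a pair of Poisson sums, and shares the Clopper-Pearson interval. With 1 library per genotype no test was made. The library ratio, its call rule and the thinning were run on simulated counts. For the ratio these were drawn from the Poisson model that its interval assumes, without variation between replicate libraries. The run therefore does not test that variation, and the class, list and chromosome steps were not simulated. Alternatives changed scaling (edgeR 4.0.16 TMM, DESeq2 1.42.0 size factors), cell limits, thinning, thresholds and classes. Gene loci follow GRCm38 and promoter windows RefSeq.

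The members and lists were chosen with earlier results of these data known. The named genes are all members, up to 3 genes per list with the largest log2 ratios, and the 5 genes most like Myc and Mycn, of which 1 is not reported here. Columns of other samples were not present (0).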

Additional observations from a re-analysis of the deposited data

Results flagged for a closer look

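Each member was compared between class-positive and other cells in each library, and 40 such member contrasts were screened for opposite directions, over the T, Eomes, Irx3, chromosome 11 and chromosome 6 classes. In 11 the libraries lay on opposite sides of 0, and in 4 of these the counting interval of the difference left out 0. These differences were not tested across samples, since each genotype has 1 library.

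Mycn in cells low on chromosome 11 was higher than in other cells of the wild-type-labelled library, with a log2 ratio of 0.35 (0.21 to 0.49). In the mutant-labelled library it was at -0.33 (-0.73 to 0.02, 62 UMIs), an interval that held 0. Mlx in Irx3-positive cells was at 0.0855 (-0.03 to 0.20) and -0.26 (-0.46 to -0.08). Mycl in cells low on chromosome 6 was at 0.10 (-0.03 to 0.23) and -0.12 (-0.28 to 0.03). Mxi1 in the same cells was at 0.19 (-0.02 to 0.40) and -0.27 (-0.52 to -0.03). In each of the 4, at least 1 library thus had an interval that held 0.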

How the results depend on the processing

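No paired analysis was possible because each genotype has 1 library. For the same reason no replicate could be left out. The library log2 ratio of Mycn stayed between -0.80 and -0.70 over 11 alternatives, at -0.70 with equal class shares. That of Myc ranged from -0.21 to -0.04, Mycl from -0.27 to -0.17, Max from -0.25 to -0.19, Mxd4 from -0.20 to -0.06, Mnt from -0.17 to -0.09, Mxi1 from -0.08 to 0.10 and Mlx from -0.03 to 0.12. Members called between the libraries numbered 2 when thinned (Max added) and 2 with equal class shares (Mycl added), against 1. The number called for T was 0 for cells with 1 class gene against none, 0 at a threshold of 0.5 and 2 at 5 CPM. For Eomes it was 0 with 2 UMIs, without cells low on chromosome 11, without cells low on chromosome 6 and at 0.5, and 2 with a mitochondrial limit of 5% (Mycl added) and at 5 CPM. For Irx3 it was 0 at 0.5. Members with a lower share of cells and intervals apart numbered 8 without thinning against 3 with it. Shares without thinning also carry the lower depth of the mutant-labelled library (medians of 10571 and 8637 UMIs per cell), so the 8 cannot be told apart from depth. The median of other bHLHZ partners was 0.01 (0.0064) at a minimum of 1 CPM, and that of translation, folding and cycle targets 0.03 (0.026) under TMM. Myc in T-positive cells of the wild-type-labelled library reversed to -0.25 and -0.10, as given above. The causes were not tested. Under TMM the median over all genes tested was 0.01 instead of -0.02. The minimum of 5 CPM and the settings without cells low on chromosome 6 for classes were added after the data were seen.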

Other observations

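Cells with at least 3 detected markers of naive pluripotency were rare (81 and 50 cells) and had the highest Mycn level of any marker group in both libraries, 46.6 CPM (34.8 to 61.2) in the wild-type-labelled library and 35.2 CPM (21.2 to 55.0) in the mutant-labelled library. Against the other cells these are log2 ratios of 0.74 (0.30 to 1.12) and 1.15 (0.38 to 1.76). Mnt was higher in the same cells, at 23.3 and 24.1 CPM (26 and 13 UMIs), log2 ratios of 0.84 (0.20 to 1.37) and 1.05 (0.08 to 1.77). This was not particular to them. Cells with at least 3 extraembryonic endoderm markers (35 and 22 cells) had Mnt log2 ratios of 1.07 (0.10 to 1.79) and 0.84 (-0.92 to 1.93). Cells with at least 3 early neural markers (316 and 86 cells), a list that holds Irx3, had Mycn at 43.6 and 24.4 CPM. These intervals, 37.6 to 50.3 and 15.9 to 35.8 CPM, overlapped those of the naive marker cells, so the order of the groups is not settled. Mnt in the early neural marker cells had log2 ratios of 0.22 (-0.17 to 0.56) and 0.99 (0.33 to 1.53). Cells with at least 3 stress markers (343 and 610) had Mxd4 at 9.06 and 9.12 CPM, log2 ratios of -0.52 (-1.0 to -0.11) and -0.38 (-0.78 to -0.03).

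Cells were also ranked by UMIs of S and G2M genes and cut into 4 equal groups. Mycn was at 26.1, 28.2, 28.6 and 30.5 CPM from the lowest to the highest group of the wild-type-labelled library, and at 14.8, 15.5, 16.8 and 18.1 CPM in the mutant-labelled library. Intervals of neighbouring groups overlapped. Median depth also rose from the lowest to the highest group, from 9690 to 11542 UMIs and from 8008 to 9248 UMIs, and its part was not tested. Mxd4 was highest in the lowest group of each, at 16.2 CPM against 11.1 to 12.6 CPM and at 13.4 CPM against 10.97 to 11.5 CPM. In the mutant-labelled library the Mxd4 interval of the lowest group, 11.9 to 14.9 CPM, overlapped those of the other groups. In Sp5-positive cells the log2 ratio of Mycn was -0.11 (-0.22 to -0.00) and -0.33 (-0.53 to -0.13).

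The 5 genes that ran most opposite to Mycn over the 15 bins, named after their values were seen, were Eif4ebp1, Bcat1, Slc7a5, Slc3a2 and Tcp1, with r from -0.93 to -0.92. Slc7a5 and Slc3a2 encode the subunits of 1 amino acid transporter, and their library log2 ratios were 0.31 and 0.35. These bins share libraries, so the values are a description only.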
